A study of Mus musculus with 22 samples.

Results

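Chemokines of brain inflammation were described in neurons and glia of the mouse contralateral hippocampus (CLH), the side opposite to a kainate injection. The 10 genes were chosen by name: Ccl2, Ccl12, Ccl7, Ccl3, Ccl4, Ccl5, Cxcl1, Cxcl10, Cxcl12 and Cx3cl1. All 10 were among the 53379 genes of the count table, and all 10 were among the 40714 genes that passed the filter on low counts. Adult male C57/BL6N mice, 8 weeks old on arrival and acclimatized for 4 weeks, received 70 nl of 20 mM kainate, an agonist of glutamate receptors that provokes status epilepticus, or the same procedure with saline (sham), above the right hippocampus. Left hippocampi were taken at 24 h, and 8 mice per treatment were pooled into 3 samples of 2 or 4 mice, so that each library was an average over animals. Nuclei were sorted by staining for NeuN, a neuronal nuclear protein, into a NeuN+ fraction (called neurons here) and a NeuN- fraction (called glia, although it holds every other cell of the tissue). The 4 groups were kainate neurons with 3 libraries, sham neurons with 3, kainate glia with 3 and sham glia with 2, because 1 sham glia preparation failed. The injection was made on the other side of the brain in both treatments, and only RNA from nuclei was measured. Sample titles and series design name the left side, whereas the extraction notes of these samples name the right, and the side was taken from the titles and design.

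Chemokines are small secreted proteins that bind receptors coupled to G proteins and steer the movement of leukocytes and microglia, the resident macrophages of the brain. They are named by the spacing of their first cysteines. The CC ligands Ccl2, Ccl7 and Ccl12 attract monocytes mainly through the receptor Ccr2, while Ccl3 and Ccl5 are ligands of Ccr1, and Ccl4 is a close relative of Ccl3 that attracts lymphocytes and macrophages. Among the CXC ligands, Cxcl1 attracts neutrophils through Cxcr2, Cxcl10 is an interferon-inducible ligand of Cxcr3, and Cxcl12 is a homeostatic ligand of Cxcr4 and Ackr3 that guides migrating cells and shapes neuronal circuits. Cx3cl1 (fractalkine) is made by neurons as a membrane-bound protein and signals to microglia through Cx3cr1.

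On the mm10 mouse genome (GENCODE M21 annotation) 6 of the 10 genes lay on chromosome 11 within 2 clusters. Ccl2 (82035571-82037453), Ccl7 (82045712-82047525) and Ccl12 (82101845-82103400) followed each other on the plus strand. Ccl5 (83525778-83530518, minus strand), Ccl3 (83647844-83649355, minus strand) and Ccl4 (83662584-83664683, plus strand) formed the second cluster. Cxcl1 (90891241-90893115, plus strand) and Cxcl10 (92346638-92348889, minus strand) were both on chromosome 5, Cxcl12 was on chromosome 6 (117168535-117181367, plus strand) and Cx3cl1 on chromosome 8 (94772009-94782427, plus strand). All are protein-coding. Exons of Cxcl10 shared 133 bases with Art3 on the opposite strand. The strand setting of the counting was not given in the sources used here, so reads from those bases cannot be assigned to 1 of the 2 genes.

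Promoter windows, from 250 bases before to 50 bases after the RefSeq transcription start (GRCm38.p6), were found for 6 of the 10 genes: Ccl12, Ccl3, Cxcl1, Cxcl10, Cxcl12 and Cx3cl1. A set of 4 are shown because they belong to the gene with the highest kainate to sham ratio in both cell types, a pair of CXC ligands classed as inflammatory and the CXC ligand that was lower in kainate neurons. Capitals mark matches to the NF-kB motif and to GAAANNGAA, the core of the interferon-stimulated response element (ISRE), searched on both strands with overlapping matches allowed.
Ccl12 (chr11:82101595-82101894, plus strand): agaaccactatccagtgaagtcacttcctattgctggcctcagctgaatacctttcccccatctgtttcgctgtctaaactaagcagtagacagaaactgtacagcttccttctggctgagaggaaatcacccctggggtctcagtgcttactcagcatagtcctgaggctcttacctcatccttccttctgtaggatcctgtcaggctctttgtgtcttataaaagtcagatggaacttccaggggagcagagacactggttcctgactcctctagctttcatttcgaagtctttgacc
Cxcl1 (chr5:90890995-90891294, plus strand): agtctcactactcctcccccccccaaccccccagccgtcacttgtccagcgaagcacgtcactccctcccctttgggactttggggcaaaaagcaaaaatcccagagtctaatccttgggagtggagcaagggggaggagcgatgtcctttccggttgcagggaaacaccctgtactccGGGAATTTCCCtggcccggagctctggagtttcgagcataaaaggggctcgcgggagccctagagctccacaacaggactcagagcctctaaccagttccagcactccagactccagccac
Cxcl10 (chr5:92348840-92349139, minus strand): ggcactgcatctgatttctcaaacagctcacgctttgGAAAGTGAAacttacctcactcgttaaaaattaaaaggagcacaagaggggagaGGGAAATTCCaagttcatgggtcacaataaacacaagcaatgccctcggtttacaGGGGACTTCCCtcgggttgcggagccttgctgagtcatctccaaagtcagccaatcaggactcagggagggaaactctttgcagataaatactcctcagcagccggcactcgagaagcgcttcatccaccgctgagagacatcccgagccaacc
Cxcl12 (chr6:117168285-117168584, plus strand): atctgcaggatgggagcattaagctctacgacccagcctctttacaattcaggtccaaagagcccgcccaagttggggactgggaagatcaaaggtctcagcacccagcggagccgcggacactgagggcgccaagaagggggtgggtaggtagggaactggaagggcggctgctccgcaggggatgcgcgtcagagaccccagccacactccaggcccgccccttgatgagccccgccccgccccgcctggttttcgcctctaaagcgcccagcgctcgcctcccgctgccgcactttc
The Cxcl1 window held the NF-kB match GGGAATTTCC from base -71 to -62 before the start, overlapped by a match on the other strand. In the Cxcl10 window the NF-kB motif matched at GGGAAATTCC (-159 to -150) and at GGGGACTTCC (-104 to -95, with a further match shifted by 1 base on both strands), and the ISRE core matched at GAAAGTGAA (-213 to -205). That window also held the AP-1 motif TGANTCA as TGAGTCA (-74 to -68). Ccl3, not shown, had an ISRE core match on the minus strand (TTCCATTTC, -39 to -31). The C/EBP motif TTNNGNAA matched at 2 places in the Cxcl10 window and at 1 in the Ccl3 window. The windows of Ccl12, Cxcl12 and Cx3cl1 held no match to these letters, nor to C/EBP, and the STAT motif TTCNNNGAA matched in none of the 6 windows. Of 32851 mouse promoter windows of the same length, 8.459% held the NF-kB motif, 8.56% the ISRE core, 7.808% AP-1, 40.68% C/EBP and 8.298% STAT. A match describes letters only.

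The libraries held 12058875 (sham glia 3) to 45428465 (kainate neurons 2) counted reads. TMM scaling factors, which correct for composition, ran from 0.700 to 1.68. Levels are given as normalized CPM, counts scaled to a common library total with these factors, and 3 counts corresponded to 0.0765 to 0.213 CPM. The input for kainate glia 2 and sham glia 1 was 0.05 ng, amplified over 15 PCR cycles, and that for each other library 1 ng, amplified over 10. Defining markers followed the sort labels: 7 of 8 neuronal markers were higher in NeuN+ nuclei, and all 12 microglial, 8 astrocyte and 6 oligodendrocyte markers were lower. The 2 sham glia libraries stood apart from each other (Pearson r of log CPM 0.876, against 0.906 to 0.971 within the other groups), and their summed microglial markers were 5085 CPM in sham glia 1 and 944 CPM in sham glia 3.

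The chemokines were ordered by level within each group. Per kilobase of exon, Cx3cl1 had the highest level of the 10 in sham neurons (mean 226 CPM per kb), kainate neurons (288 CPM per kb) and sham glia (28.8 CPM per kb). In kainate glia Ccl12 had the highest mean at 57.0 ± 28.2 CPM per kb (SD, n = 3), followed by Cx3cl1 at 40.3, Ccl4 at 32.6, Ccl2 at 20.2 and Ccl3 at 15.6 CPM per kb. Ccl7 (5.93), Cxcl12 (5.35), Cxcl10 (4.48), Cxcl1 (1.73) and Ccl5 (1.57 CPM per kb) came after them. Every pair of neighbours in that order overlapped in its range over the 3 libraries, and in kainate glia 2 Cx3cl1 (48.0 CPM per kb) was above Ccl12 (35.2 CPM per kb). In sham neurons Ccl12 was last of the 10, at a mean of 0.136 CPM per kb, and in kainate neurons it had a mean of 1.98 CPM per kb, in a range that overlapped those of Ccl2 and Cxcl12.

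**Figure D1:**
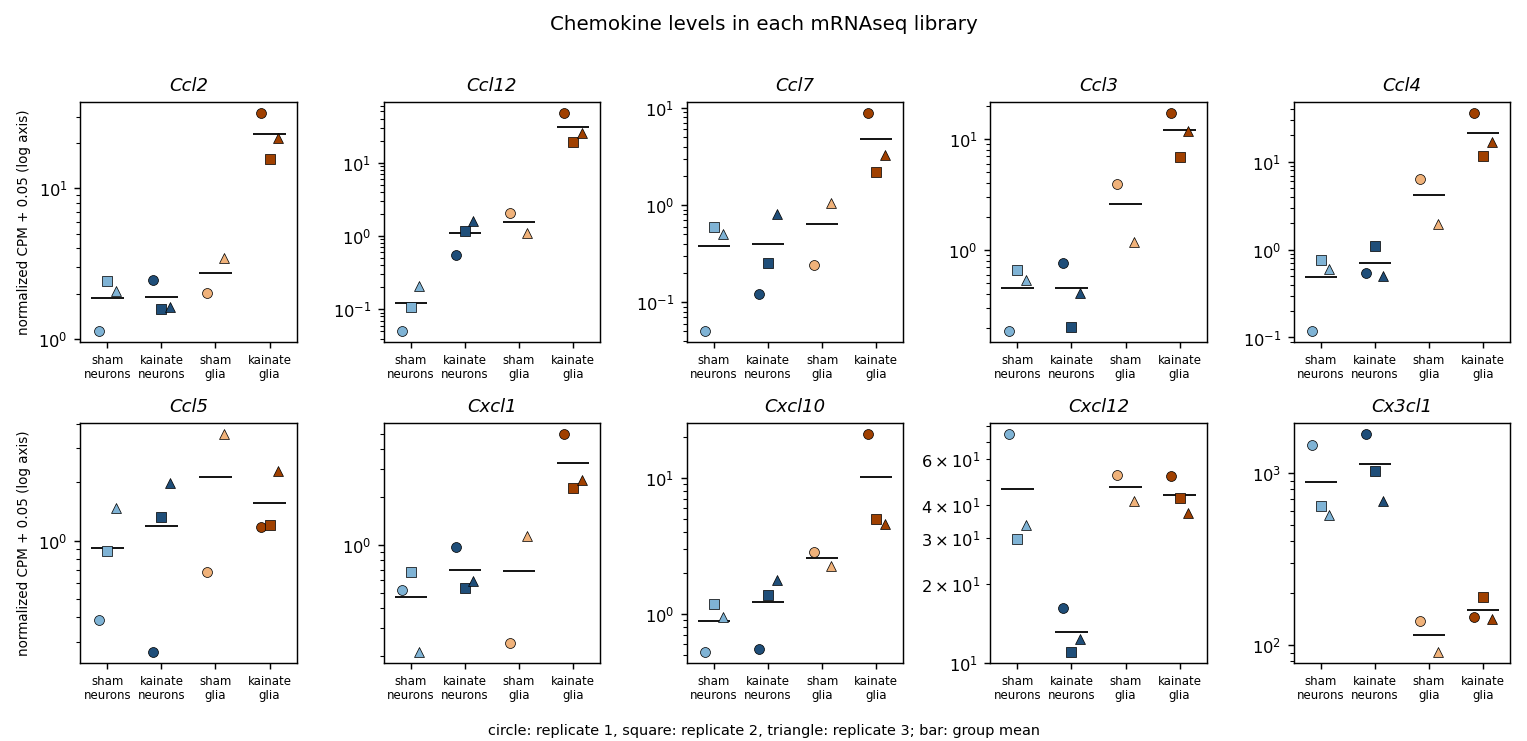
Normalized CPM of each chemokine in the 11 mRNAseq libraries, plotted on a log axis after adding 0.05, with points as libraries (shape gives the replicate number) and bars as group means. Kainate glia lie above sham glia for 8 of the 10 genes, Ccl12 is also higher in kainate than in sham neurons, and Cxcl12 is lower in kainate neurons alone.

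The first comparison asked which chemokines differed between kainate and sham glia. Ccl12 and Ccl2 were upregulated, 20.3-fold and 8.46-fold, and no member was downregulated. The levels of 8 of the 10 genes did not overlap between the groups, with every kainate library above both sham libraries, against 4.7% of all genes tested. At an FDR below 0.25 in edgeR's quasi-likelihood test, 2 of 10 were called higher, where 0.0933% of all 40714 genes were called higher and 0.00737% lower. At an unadjusted p below 0.05, 7 of 10 were higher, against 1.35% of all genes. The median log2 fold change of the 10 was 2.28, and that of all genes tested was 0.02. Same-numbered kainate and sham libraries deviated together, and with the replicate number as a block 7 of 10 were called higher, where the block called 2.93% of all genes higher and 2.86% lower. As sham glia 2 was missing, kainate glia 2 had a block term of its own. The glial effects under the block therefore rested on replicates 1 and 3.

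Of the Ccl2 cluster, Ccl12 had levels of 47.7, 18.9 and 25.3 CPM in kainate glia 1, 2 and 3, and of 1.98 and 1.04 CPM in sham glia 1 and 3. The lowest kainate library was thus far above the higher sham library. The log2 fold change was 4.34 (SE 0.74, FDR = 0.105). For Ccl2, the best-known monocyte attractant of the family, levels were 31.7, 15.6 and 21.6 CPM with kainate and 1.98 and 3.42 CPM in sham glia. Again the groups were separated, with a log2 fold change of 3.08 (SE 0.55, FDR = 0.142). Levels of Ccl7, which shares Ccr2 with both, were 8.84, 2.14 and 3.26 CPM with kainate and 0.192 (3 counts) and 0.992 CPM in sham glia. Its log2 fold change of 2.97 had an SE of 1.24 and was not called (FDR = 1.00), whereas under the block it was 3.21 (FDR = 0.00363). Without sham glia 3 the log2 fold change of Ccl7 was 4.58, measured against the 3 counts of sham glia 1 alone, and the median of all genes was 0.76. That of Ccl7 was 2.27 without sham glia 1 and 2.13 without kainate glia 1. In a separate fit of the glia libraries, which called none of 39857 genes, neither Ccl12 (FDR = 0.707) nor Ccl2 (FDR = 0.711) was called. With low RNA input as a covariate Ccl12 was not called (log2 fold change 4.27, FDR = 0.285), and Ccl2 was (FDR = 0.236). The FDR of Ccl12 was 0.407 without kainate glia 1 (log2 fold change 3.75) and 0.260 without kainate glia 2. Without sham glia 1, which left 1 sham glia library, its log2 fold change was 4.90. The FDR of Ccl2 was 0.407, 0.260 and 0.348 without kainate glia 1, 2 and 3, and 0.300 and 0.254 without kainate neurons 2 and sham neurons 3. Without sham glia 1 the log2 fold change of Ccl2 was 2.77. Without both low-input libraries, which left 1 sham glia library, Ccl12 differed by 5.15 and Ccl2 by 2.98 on the log2 scale. With 1 sham glia library the spread was estimated from the other groups, so no FDR is given.

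Of the Ccl3 cluster, Ccl4 reached 36.1, 11.8 and 16.6 CPM in kainate glia, against 6.33 and 1.93 CPM in sham glia. Ccl3, its close relative, reached 17.1, 6.85 and 11.8 CPM against 3.90 and 1.14 CPM. In both genes sham glia 1 was the higher sham library and kainate glia 2 the lowest kainate library, and the groups did not overlap. Neither was called, with log2 fold changes of 2.38 (SE 0.78) and 2.25 (SE 0.78), both at FDR = 1.00. Without sham glia 1 they were 3.50 and 3.40, without sham glia 3 1.75 and 1.60, and without kainate glia 1 1.63 and 1.74, for Ccl4 and Ccl3 respectively and not called in edgeR. DESeq2's Wald test called Ccl4 (FDR = 0.182) and not Ccl3 (FDR = 0.262). Under the block, the log2 fold changes were 2.79 for Ccl4 (FDR = 9.26e-07) and 2.71 for Ccl3 (FDR = 0.00012), and both were called. Ccl5, a ligand also made by T cells, did not follow them. Its levels were 1.13, 1.15 and 2.25 CPM in kainate glia and 0.639 and 3.52 CPM in sham glia, so that the sham libraries spanned the kainate libraries. The log2 fold change was -0.46 (SE 0.93, FDR = 1.00), and without sham glia 3 it was 1.23, where the median of all genes was 0.76.

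Among the CXC ligands, Cxcl10 reached 20.9, 4.89 and 4.52 CPM in kainate glia against 2.81 and 2.18 CPM in sham glia. Kainate glia 1 was more than 4 times as high as the other kainate libraries, and the log2 fold change of 2.01 (SE 0.78) was not called (FDR = 1.00). The block gave 1.98 (FDR = 0.00521). Without kainate glia 1 and without a block, the log2 fold change of Cxcl10 was 0.82. Cxcl1 was measured at 4.95, 2.24 and 2.53 CPM with kainate and at 0.192 (3 counts) and 1.09 CPM in sham glia. Its log2 fold change was 2.31 (SE 0.91, FDR = 1.00), and 2.57 under the block (FDR = 0.0388). Without sham glia 3 it was 4.03, also against 3 counts, where the median of all genes was 0.76. Without sham glia 1 the log2 fold change of Cxcl1 was 1.59. Cxcl12 lay at 51.4, 42.5 and 37.4 CPM in kainate glia and at 52.0 and 41.4 CPM in sham glia. These ranges overlapped almost wholly, and the log2 fold change of -0.09 had an SE of 0.43 (FDR = 1.00).

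Cx3cl1, the single CX3C ligand, lay at 145, 188 and 141 CPM in kainate glia and at 136 and 90.0 CPM in sham glia. Although the groups did not overlap, kainate glia 3 exceeded sham glia 1 by little, and the log2 fold change of 0.48 (SE 0.52) was not called (FDR = 1.00).

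Cell type markers were set beside these differences. In bulk samples, fewer cells of a type and less RNA per cell cannot be told apart. No microglial marker was called for kainate in glia, and 11 of 12 had a negative log2 fold change (median -0.74), with 5 of 12 called lower under the block. The summed microglial markers ranged from 910 to 2607 CPM in kainate glia and from 944 to 5085 CPM in sham glia. Relative to that sum in the same library, Ccl12 amounted to 1.83, 1.32 and 2.78% in kainate glia and to 0.039 and 0.11% in sham glia. Ccl2 amounted to 1.21, 1.09 and 2.38% in kainate glia and to 0.039 and 0.362% in sham glia, so that neither ratio overlapped between the groups. For markers of blood myeloid cells, 7 of 8 were tested and none was called in glia in either fit, with sums of 13.9 to 33.7 CPM in kainate and 8.95 to 33.7 CPM in sham glia. Sums of 6 T cell markers were 4.77 to 14.6 CPM in kainate and 4.47 to 15.3 CPM in sham glia, and none was called in either fit. Oligodendrocyte markers had negative log2 fold changes in 6 of 6 cases, none called without the block and 4 called lower with it. Of the other lists, none of 8 astrocyte, 5 oligodendrocyte precursor, 5 pericyte, 8 endothelial and 8 neuronal markers was called for kainate in either cell type without the block, and in glia the block called 4, 4, 1, 0 and 1 of them lower and 1 astrocyte and 1 neuronal marker higher. Their part in the chemokine differences was not tested.

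**Figure D2:**
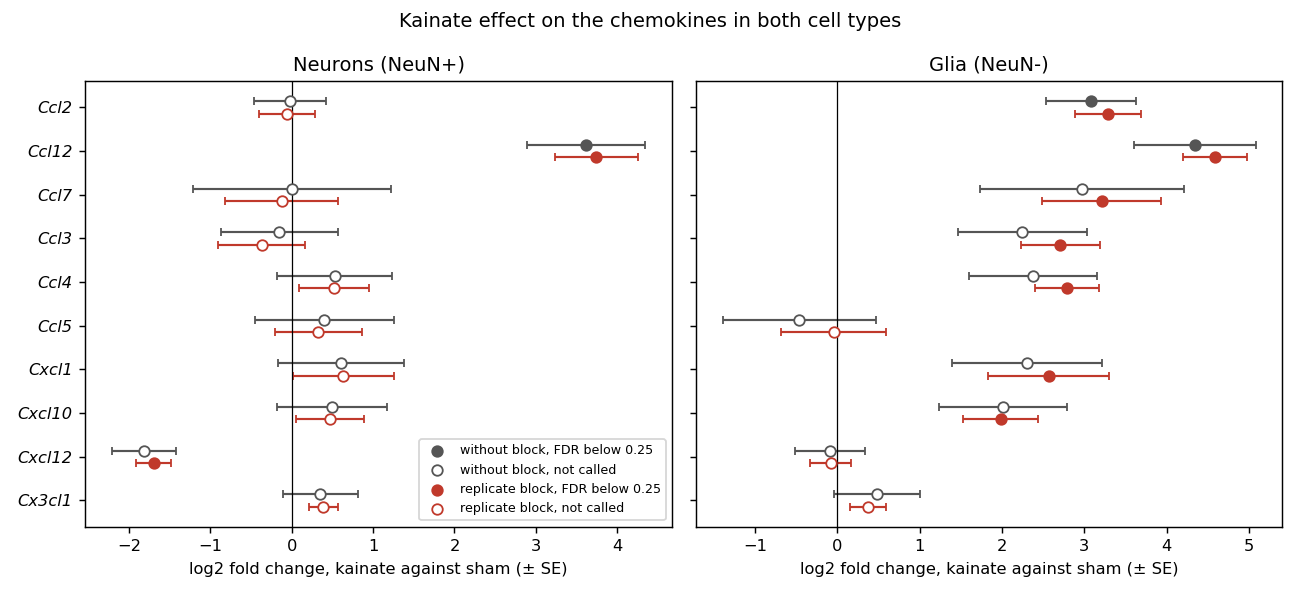
Log2 fold change of each chemokine between kainate and sham, in neurons (left) and glia (right), with bars of 1 SE, in the fit without a block (grey) and with the replicate block (red), where filled points have an FDR below 0.25. Ccl12 in both cell types and Ccl2 in glia are called in both fits plotted, 5 further genes are called higher in glia under the block, and of these fits the one with the block calls Cxcl12 lower in neurons.

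The same question in neurons gave another picture. Ccl12 was upregulated 12.3-fold, from very few reads, and Cxcl12, at moderate levels, was 3.51-fold lower with an FDR just above the threshold. The remaining 8 members had log2 fold changes between -0.15 and 0.60, all with FDR = 1.00. Of the 10 genes, 1 was called higher, where 0.157% of all genes were called higher and 0.00737% lower. The median log2 fold change was 0.38, against -0.01 for all genes. Libraries did not overlap for Ccl12 (kainate higher, as for 4.26% of all genes) and for Cxcl12 (kainate lower, as for 3.6%). With the replicate block 1 was called higher and 1 lower, where the block called 3.19% of all genes higher and 1.9% lower.

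Ccl12 in neurons was counted 7, 44 and 35 times in kainate neurons 1, 2 and 3 (0.498, 1.12 and 1.58 CPM), and 0, 2 and 5 times in sham neurons 1, 2 and 3 (0, 0.0574 and 0.161 CPM). A count of 0 in sham neurons 1 allows up to 0.201 CPM. All kainate libraries were above all sham libraries, but the sham counts were at or near the limit of detection. The log2 fold change was 3.62 (SE 0.73, FDR = 0.177), and 3.74 under the block (FDR = 3.62e-07). The FDR rose above 0.25 when kainate neurons 2 (0.530) or 3 (0.649), sham neurons 1 (0.356), 2 (1.00) or 3 (0.628), or kainate glia 2 (0.305) was left out, with log2 fold changes of 3.26 to 4.65. It was also above 0.25 with the newer quasi-likelihood method (0.490) and with low RNA input as a covariate (0.318). In the same NeuN+ libraries the summed microglial markers were 84.4 to 97.1 CPM with kainate and 58.1 to 83.8 CPM in sham, and 9 of 12 of these markers had a positive log2 fold change, none called without the block, 2 called higher and 1 lower with it. Relative to that sum Ccl12 amounted to 0.573, 1.33 and 1.62% in kainate neurons, and to 0, 0.0988 and 0.23% in sham neurons. The summed astrocyte markers were 290 to 486 CPM in kainate and 195 to 271 CPM in sham neurons, without overlap, and 6 of 8 had a positive log2 fold change, none called without the block, 5 called higher and 2 lower with it. The part of RNA from other cells in the Ccl12 difference was not tested.

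Cxcl12 in neurons was measured at 16.1, 10.9 and 12.2 CPM in kainate neurons 1, 2 and 3 and at 74.9, 29.5 and 33.5 CPM in sham neurons 1, 2 and 3. Every sham library exceeded every kainate library, and within replicate numbers 1, 2 and 3 the sham level was 4.64, 2.71 and 2.74 times the kainate level. The log2 fold change was -1.81 (SE 0.39), with FDR = 0.254. It was called in 11 of 21 alternatives, among them a separate fit of the neurons (FDR = 0.0840) and the newer quasi-likelihood method (FDR = 0.186). Under the block it was -1.70 (SE 0.21, FDR = 4.96e-08). Sham neurons 1 was the highest library, and without it the log2 fold change was -1.27 (FDR = 0.686). The FDR was below 0.25 without kainate glia 1 (0.209) or 3 (0.134) or sham glia 1 (0.130) or 3 (0.127), and it was 0.499 without kainate glia 2, 0.373 with low RNA input as a covariate and 0.448 to 1.00 without any other single neuron library. None of the 8 endothelial cell markers was called in neurons without the block (1 was higher with it), and their sums were 16.6 to 36.3 CPM in kainate and 18.1 to 33.5 CPM in sham neurons. Under the block in neurons, 2 of 8 neuronal markers were called higher and 1 lower. It also called 1 oligodendrocyte and 1 oligodendrocyte precursor marker lower, and no pericyte marker. The part of these markers in the Cxcl12 difference was not tested.

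The other CC and CXC ligands stayed low in neurons and overlapped between treatments. Ccl2 lay at 2.42, 1.53 and 1.58 CPM with kainate and at 1.07, 2.38 and 2.03 CPM in sham neurons, a log2 fold change of -0.02 (SE 0.44). Ccl4 lay at 0.498, 1.04 and 0.450 CPM against 0.0671, 0.718 and 0.548 CPM, and Ccl3 at 0.711, 0.153 and 0.360 CPM against 0.134, 0.603 and 0.484 CPM. Ccl7 ranged from 0.0711 to 0.766 CPM with kainate and from 0 to 0.546 CPM in sham neurons. Levels of Ccl5 were 0.213 to 1.94 CPM with kainate and 0.336 to 1.42 CPM in sham, those of Cxcl1 0.484 to 0.925 and 0.161 to 0.632 CPM, and those of Cxcl10 0.498 to 1.71 and 0.470 to 1.12 CPM. No difference in these genes was detectable at this depth.

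Cx3cl1 was abundant in neurons, at 1686, 1023 and 689 CPM with kainate and 1443, 645 and 572 CPM in sham neurons. Replicate 1 was highest in both treatments, and kainate exceeded sham 1.17, 1.59 and 1.21 times within replicate numbers 1, 2 and 3. The log2 fold change of 0.35 (SE 0.46) was not called (FDR = 1.00), nor was that of 0.39 (SE 0.18) under the block (FDR = 0.446).

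Whether the kainate effect differed between neurons and glia was tested as a difference of log2 fold changes. None of the 10 was called, where 0.00246% of all genes were called in either direction by edgeR, and 3 of 10 had an unadjusted p below 0.05 with a negative difference, as did 0.462% of all genes. Ccl2 differed by -3.10 (SE 0.69, FDR = 1.00), that is, its log2 fold change was smaller in neurons, and Cxcl12 differed by -1.72 (SE 0.58, FDR = 1.00). DESeq2's Wald test called 1 of 10, Ccl2 (FDR = 0.0155), and of all 40714 genes it called 21 with a positive and 10 with a negative difference. Under the replicate block within cell types 5 of 10 were called, where 1.94% of all genes were called, and all 5 differences were negative. They were Ccl2, Ccl7, Ccl3, Ccl4 and Cxcl12. With both fractions of a pool tied together instead, none of the 10 was called, and Ccl2 differed by -2.80 (FDR = 0.317) and Cxcl12 by -1.86 (FDR = 0.429). For Ccl12 the difference was -0.73 (SE 1.11, FDR = 1.00), an error wide enough that a similar or a smaller effect in neurons could not be distinguished.

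The sorted fractions themselves were compared over both treatments. Cx3cl1 was 7.49-fold higher in NeuN+ nuclei, 8 chemokines were lower there, and Ccl5 was not called. In this comparison 16.8% of all genes were called higher and 20.4% lower, and the median log2 fold change of all genes was -0.47, against -2.17 for the 10. For Cx3cl1 the log2 fold change was 2.90 (SE 0.39, FDR = 0.000111), with every NeuN+ library above every NeuN- library. The strongest depletion was in Ccl12 (-4.45), Ccl4 (-4.03) and Ccl3 (-3.74), and the latter 2 and Cxcl10 (-2.31) did not overlap between fractions. The share of all genes without overlap between fractions was not computed. Ccl7 (-2.25), Ccl2 (-2.10), Cxcl1 (-1.47) and Cxcl12 (-0.88) were called lower although some libraries overlapped. Without sham glia 3, where the median of all genes moved to 0.24, Ccl7 (-1.42) and Cxcl1 (-0.61) were not called. Ccl5 had a log2 fold change of -0.82 (SE 0.63, FDR = 0.397), which was -1.16 without sham glia 1 (FDR = 0.159) and 0.0415 without sham glia 3 (FDR = 0.982). With the pool as a block, which called 59.7% of all genes in either direction, Ccl5 was called as well (-0.86, FDR = 0.162).

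Within single pools, the NeuN+ level was set against the NeuN- level of the same animals. Ccl2 in neurons was 54.2 and 59.4% of its glial level in sham pools 1 and 3, and 7.64, 9.77 and 7.29% in kainate pools 1, 2 and 3. The sham and kainate pools were well apart. Cxcl12 in neurons was 144 and 80.8% of its glial level in sham pools, and 31.4, 25.6 and 32.6% in kainate pools. In edgeR without a block, the glial level of Ccl2 was called higher with kainate (FDR = 0.142). The neuronal level of Cxcl12 was lower with kainate but not called (FDR = 0.254). For both genes edgeR called the difference of effects between cell types only under the replicate block. For Ccl12 the percentages in kainate pools 1, 2 and 3 were 1.04, 5.93 and 6.24%, where the summed markers of microglia were at 3.33, 5.87 and 10.7%, those of oligodendrocytes at 0.770, 3.41 and 9.20% and those of astrocytes at 7.69, 20.4 and 66.5%. In sham pools 1 and 3, Ccl12 was at 0 and 15.5%, and the microglial markers were at 1.65 and 7.43%.

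**Figure D3:**
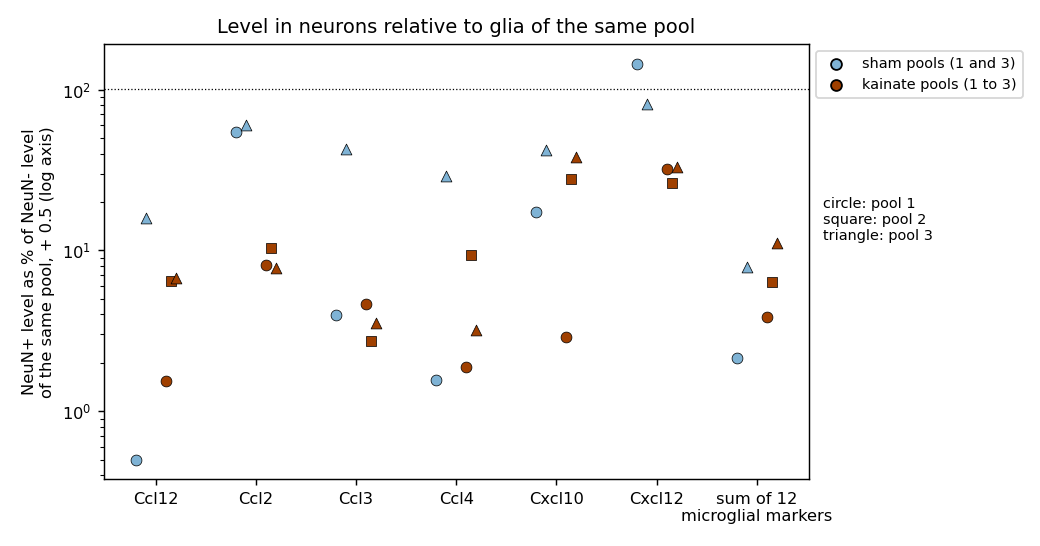
Level in NeuN+ nuclei as a percentage of the level in NeuN- nuclei of the same pool, plus 0.5, on a log axis, for 6 chemokines and the sum of 12 microglial markers, with 1 point per pool and a dotted line at equal levels. Ccl2 and Cxcl12 have lower percentages in all 3 kainate pools than in both sham pools.

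Receptors were examined as a list of 23 chemokine receptors, all of which were tested. None was called for kainate in neurons or in glia without the block, and their median log2 fold changes were -0.10 and -0.18. With the block, no receptor was called lower, 2 were called higher in neurons, among them Cxcr4, and 1 was called higher in glia, where the block called 3.19 and 2.93% of all genes higher. Cxcr4 lay at 2.99, 1.33 and 2.16 CPM in kainate neurons and at 1.14, 0.660 and 0.838 CPM in sham neurons, without overlap. Its log2 fold change was 1.29 (SE 0.66, FDR = 1.00), and 1.25 under the block (FDR = 0.0716). The log2 fold changes of Cxcr4 and of its ligand Cxcl12 in neurons had opposite signs.

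The other receptors described here were not called for kainate in either fit. Ccr2 ranged from 2.00 to 5.64 CPM in kainate glia and from 6.52 to 8.83 CPM in sham glia, so that all kainate libraries were below both sham libraries (log2 fold change -0.80, SE 0.66, FDR = 1.00), while its levels in neurons overlapped. Ccr1 lay at 4.38 to 5.96 CPM in kainate and 3.12 to 6.33 CPM in sham glia. Cx3cr1, the receptor through which fractalkine signals, ranged from 106 to 285 CPM in kainate and from 112 to 564 CPM in sham glia, and from 4.27 to 6.80 and 4.77 to 6.22 CPM in the 2 groups of neurons. Ackr3, a receptor that removes Cxcl12, was at similar levels in both fractions, at 16.4 to 38.1 CPM in kainate and 12.3 to 30.3 CPM in sham neurons. Ackr2, a scavenger of inflammatory CC ligands, ranged from 1.81 to 2.48 CPM in kainate and from 1.97 to 2.79 CPM in sham neurons, and from 0.251 to 3.48 and 0.256 to 5.55 CPM in kainate and sham glia. Ccr3, a receptor of Ccl5 and Ccl7, reached at most 1.38 CPM in any library. Cxcr2 and Cxcr3 reached at most 3.18 and 1.34 CPM in any library, and all 3 kainate glia libraries were below both sham glia libraries for Cxcr3 (log2 fold change -1.32, SE 1.07, FDR = 1.00). Comparing the fractions, 9 receptors were lower in NeuN+ nuclei, and 1, Ackr1, was higher (log2 fold change 2.06, FDR = 0.000113). Ackr1 shares 361 exon bases with Cadm3, which lies on the same strand, so its counts are uncertain. With the pool as a block, 16 receptors were lower and 2 higher. Both counts stand against the 20.4% lower and 16.8% higher of all genes without that block and the 59.7% called in either direction with it.

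**Figure D4:**
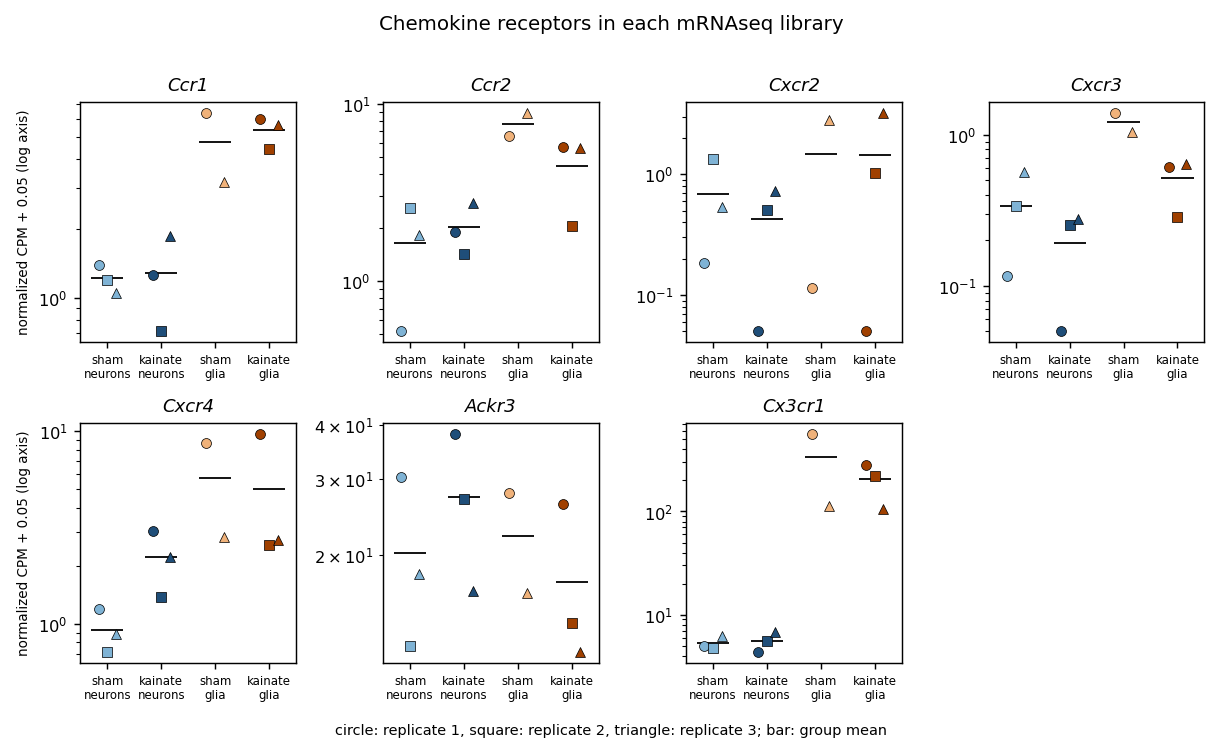
Normalized CPM plus 0.05, on a log axis, of 7 receptors of the chemokines in the 11 mRNAseq libraries, with points as libraries and bars as group means. Cxcr4 is higher in all kainate than in all sham neuron libraries, and Ccr2 and Cxcr3 are lower in all kainate than in all sham glia libraries.

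Among 28 other chemokine ligands, 26 were tested, Cxcl13 and Xcl1 having too few reads. None was called in either cell type without the block, and the median log2 fold changes were 0.03 in neurons and 0.06 in glia. With the block, Cxcl14 alone was called, with a log2 fold change of -1.08 in glia (FDR = 0.0094). Its levels were 62.8, 18.8 and 8.88 CPM in kainate glia and 112 and 22.6 CPM in sham glia, which overlapped. Between fractions, 10 of the 26 were lower in NeuN+ nuclei and 3 were higher, and with the pool as a block 16 were lower and 4 higher, against the same shares of all genes as for the receptors.

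For 4 members the genes with the most similar levels over the 11 libraries were looked up by Pearson's r of log2(CPM + 1) among 16485 genes. The libraries are not independent, since fractions of a pool share animals, and r describes the pattern over the 4 groups with no test. Ccl12 was closest to Msr1, a scavenger receptor of macrophages (r = 0.971), then Arid5a (0.970) and Col16a1 (0.969). Msr1 was also closest to Ccl2 (0.973), followed by Cd300lf (0.957) and Cd244a (0.951). Cxcl12 had weaker neighbours in Emp2 (0.889), Ptprk (0.870) and Capn3 (0.862). Cx3cl1 was closest to Pam (0.996), Gpr158 (0.995) and Eno2, the neuronal enolase (0.995).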

How the data were processed

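The deposited values were raw read counts per gene, made by the authors from mRNAseq (SMART-Seq v4 cDNA) by trimming with Trim Galore 0.4.3, alignment with Rsubread and counting of uniquely mapped reads with featureCounts on GENCODE M16 (mm10). The strand setting was not given in the sources used here. The 11 bisulfite samples were not used here.

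Genes without a symbol (105) were removed, and filterByExpr (minimum count 10, minimum total 15) kept 40714 genes. Counts were scaled by TMM, and edgeR 4.0.16 (R 4.3.3) fitted a quasi-likelihood model with 1 mean per group to all 11 libraries. P-values were adjusted over all genes tested (Benjamini-Hochberg) and genes called at FDR below 0.25. Fold changes use a prior count of 0.125, and SE is the log2 fold change divided by the root of F. The fit without a block had 7 residual degrees of freedom and a common biological coefficient of variation of 0.600. A block left fewer degrees of freedom. Pools are separate sets of mice. Limits of detection cover counting error only, and reads carried no molecular identifiers. The SEs come from the fit and include variation between libraries.

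Replicate numbers were checked for pairing: deviations of same-numbered kainate and sham libraries from their group means correlated at 0.643, 0.161 and 0.491 in neurons and at 0.760 and 0.787 in glia, so a fit blocked on that number, separately in neurons and glia, is given beside results it changes. Both fractions of a pool come from the same animals (r = 0.240 to 0.668), so the fractions were also compared with the pool as a block. Alternatives were DESeq2 1.42.0 (size factors, Wald test), filters on low counts, a separate fit per cell type, the newer quasi-likelihood method, FDR below 0.05, low input as a covariate or left out, and each library left out. The fit was also run on simulated counts with less spread than these and no replicate effect. Its error rate on counts like these was not measured.

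The 10 members and the lists of receptors, other ligands and cell type markers were chosen with earlier results of these data known. Cx3cr1 is in both the receptor and the microglial list, and Ccr2 in both the receptor and the blood myeloid list. All members are described. Listed receptors and other ligands are named if called for kainate at FDR below 0.25 without a block or if they are a receptor of a member (1 gene is not reported here), others are named after their values were seen, and cell type markers are given as counts and sums. CPM per kilobase uses exon lengths of GENCODE M21, a later release than that of the counts.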

Additional observations from a re-analysis of the deposited data

Results flagged for a closer look

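The kainate effect differed between neurons and glia for 5 chemokines in the fit that blocked on replicate number, separately in neurons and glia (edgeR, FDR below 0.25). In that fit the glial effects rested on replicates 1 and 3, since kainate glia 2 had no sham library of its number. As log2 fold change in neurons minus that in glia, the differences were -3.34 for Ccl2 (FDR = 5.3e-05), -3.34 for Ccl7 (FDR = 0.128), -3.08 for Ccl3 (FDR = 0.0147), -2.28 for Ccl4 (FDR = 0.0337) and -1.62 for Cxcl12 (FDR = 0.0029). For the first 4 the glial effect was larger, and for Cxcl12 the lower level was in kainate neurons. In edgeR none of the 5 was called in the model of group means or with the pool as a block, and DESeq2's Wald test without a block called Ccl2 (-3.06, FDR = 0.0155). Groups of 2 or 3 libraries were too small to be searched for outlying libraries.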

How the results depend on the processing

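Among the 10 chemokines, the count called for kainate in glia was 2, against 0 in a separate fit per cell type, at FDR below 0.05 or without both low-input libraries, 1 with low input as a covariate, 7 with the replicate block, and 0 to 4 with 1 library left out (0 without kainate glia 1, kainate glia 2 or sham glia 1, and 4 without sham glia 3). In neurons it was 1, where 64 of all genes were called higher and 3 lower. It was 2 with no filter (64 and 4 of all genes) and at 1 CPM or more in 3 libraries (122 and 15). DESeq2 also gave 2, with its size factors (67 and 7) or its Wald test (292 and 68), as did the replicate block (1299 and 773). The count was 0 at FDR below 0.05 (8 and 0) or with low input as a covariate (40 and 1). With 1 library other than sham glia left out it was 0 to 2. Without sham neurons 2 or 3, only 5 of all genes were called higher. A count of 1 could be another gene: Ccl12 was filtered out of the separate fit for neurons, where Cxcl12 was called (FDR = 0.0840), and with the newer quasi-likelihood method Cxcl12 was called (FDR = 0.186) and Ccl12 was not (FDR = 0.490). For the difference between cell types the count was 0, against 1 with DESeq2's Wald test and 5 with the replicate block. The 9 calls between fractions kept that count within 1.5 times under every alternative run. The replicate block changed no other call among the 10 chemokines. The cause of these changes was not tested.

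Signs changed only in values that were not called. For Ccl7 in neurons the log2 fold change was 0.00, against -0.00346 with DESeq2's size factors, -0.0478 without a filter, -0.202 with the newer quasi-likelihood method, -0.13 with the block, -0.00803 without both low-input libraries and -1.20 to 0.50 with 1 library left out. Cxcl12 in glia was 0.12 without both low-input libraries and -0.32 to 0.11 with 1 left out. Cx3cl1 differed between cell types by 0.0179 under the block and by -0.53 to 0.42 with 1 library left out.
With 1 library left out, the ranges were -0.27 to 0.22 for Ccl2, -0.77 to 0.31 for Ccl3, -0.18 to 0.95 for Ccl5 and -0.0505 to 0.90 for Cx3cl1 in neurons, -1.19 to 1.23 for Ccl5 in glia, -1.28 to 0.30 for Ccl12 and -0.83 to 1.59 for Ccl5 between cell types, and -1.16 to 0.0415 for Ccl5 between fractions.

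Low input as a covariate moved the median log2 fold change of all genes in glia from 0.02 to 0.18, and leaving out kainate glia 3 moved it to -0.26. The largest shift came without sham glia 3, which left 1 sham glia library. There the median of all genes was 0.76 in glia, and between fractions it moved from -0.47 to 0.24. Only 2 sham glia libraries, few reads of Ccl12 in sham neurons and pooled animals limit what these counts can resolve.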
